A study of Mus musculus with 6 samples.

Results

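RNA of 41 interferon-stimulated genes was compared between the lungs of Zpbp2 KO mice and of WT mice at ZT10, which is 10 h after the lights come on in a 12 h light and 12 h dark cycle. The members were taken from the count table by gene symbol and fall into 30 genes of the type I interferon kind and 11 GTPases that are best known as targets of interferon-gamma. They occupy 42 of the 47069 genes in the count table, because the symbol Gbp6 stands for a pair of gene identifiers, and 1 of these (ENSMUSG00000079362) had 0 counts in all 6 mice. Every 50-base stretch of the longest transcript of ENSMUSG00000079362 recurs in other genes, so 0 counts need not mean that its RNA was absent. The other 41 genes had enough counts to be tested, among 17037 genes tested in all. The WT group held 3 C57BL/6J mice (WT4, WT5 and WT6). The KO group held 3 mice (KO4, KO5 and KO6) of the strain B6.129S7-Zpbp2tmZuk/Mmjax, in which exons 1 to 3 of Zpbp2 are deleted and which is kept on the C57BL/6J background. WT and KO mice came from the same colony and were adult, and each library was made from the lung of a single mouse, with no treatment named. The individual ages and litters are not given in the sources used here.

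The libraries held 19981428 to 46796908 counted reads, so that 3 counts amounted to between 0.0629 and 0.148 CPM, the count of a gene scaled to a common library size, and KO5 was the deepest library. Zpbp2 itself had 1, 2 and 2 counts in the WT mice and 0 in each KO mouse, too few to check the deletion in lung RNA. The lung markers Sftpc, Sftpb, Sftpa1, Ager and Scgb1a1 were abundant in all 6 libraries. Xist was detected in all 6 mice, and Ddx3y, a gene of the Y chromosome, had 9 counts in KO5 and 0 in the others. KO5 stood apart in markers of lymphocytes, with a summed level of 10 B cell genes of 1100 CPM against 256.5 CPM in KO4, 310.5 CPM in KO6 and 139.9 to 151.5 CPM in the WT mice.

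Interferons are secreted proteins by which cells warn each other of infection. Type I interferons bind the receptor of Ifnar1 and Ifnar2 and, through the kinases Jak1 and Tyk2, activate a complex with Stat2 and Irf9 that binds the interferon-stimulated response element (ISRE) of its target genes. Interferon-gamma, made by T cells and natural killer cells, acts through Ifngr1 and Ifngr2 and on genes with a gamma-activated site (GAS). Their targets include sensors of foreign nucleic acid, enzymes and binding proteins that stop the copying of viral RNA, and GTPases that attack the vacuoles in which intracellular microbes live. Many of them are transcribed at a low level in tissue without infection.

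In the KO lungs, 9 of the 41 members were higher at an adjusted p of at most 0.05 and none was lower (edgeR's quasi-likelihood test, p-values adjusted over all genes tested by the Benjamini-Hochberg method). Over all genes tested, 6.39% were called, 3.72% as higher and 2.67% as lower. SE stands for standard error, and each adjusted p is from this test unless another is named. The 9 were Oas3, Ifi204, Oasl1, Mx1, Zbp1, Dhx58, Oas1a, Trim30a and Oasl2, all of the type I kind, and their fold changes lay between 1.47 and 2.39. None of the 11 GTPases was called, and 3 of them had an unadjusted p of at most 0.05, which 25.5% of all genes tested had. DESeq2 called 2 of the GTPases, Gbp3 and Gbp5, and edgeR's exact test called 0. Of the type I kind, DESeq2 also called Dtx3l, Ifit2, Ifit3 and Samd9l, and the exact test also called Dtx3l and Ifit3. Slfn5 was the member with a negative fold change at an unadjusted p of at most 0.05, and neither of these tools called a member lower. None of the members reached an absolute log2 fold change of 1.5, the size the study asked of its differentially expressed genes, which 0.64% of all genes tested reached together with the adjusted p. The log2 fold change was above 0 in 39 of the 41 members, and 50.6% of all genes tested were above 0. The median log2 fold change was 0.30 over the type I-type members (a fold of 1.23) and 0.28 over the GTPases (a fold of 1.21), beside 0.00295 over all genes tested. All 3 KO values lay above all 3 WT values in 22 type I-type members and in 1 GTPase, which was Gbp5, and below them in Slfn5 alone. Over all genes tested, 17% had all KO values above and 15.6% had them below. In whole lung RNA, more cells of a type and more RNA per cell cannot be told apart.

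The number of members called changed with the mouse left out. So did the number over all genes tested, which ran from 1 to 1278 genes. Of the members, 3 were called without WT4, 0 without WT5, 1 without WT6 and 2 without KO6. Without KO4 the number was 10, and without KO5 it was 13. Without WT5, 15 members had an unadjusted p of at most 0.05, beside 18.1% of all genes tested in that fit, and 1 gene was called over the whole table. The log2 fold changes of all 9 called members stayed above 0 whichever mouse was left out, with 0.47 the lowest and 1.29 the highest value. Within single genes they ranged from 0.81 to 1.10 in Zbp1, 0.94 to 1.25 in Ifi204 and 1.21 to 1.29 in Oas3. Markers of monocytes rose in the same KO mice, with 10 of 12 called higher (beside 3.72% of all genes tested). Their median log2 fold change was 1.06. Their summed level was 1749 to 1793 CPM in WT mice and 1864 to 2183 CPM in KO mice, mostly from Ace, which endothelial cells also express, and without Ace it was 272.5 to 362.9 CPM in WT mice and 510.3 to 656.6 CPM in KO mice. No defining monocyte marker was at 0 in any mouse. The part of monocytes in the differences of the members was not tested.

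**Figure D1:**
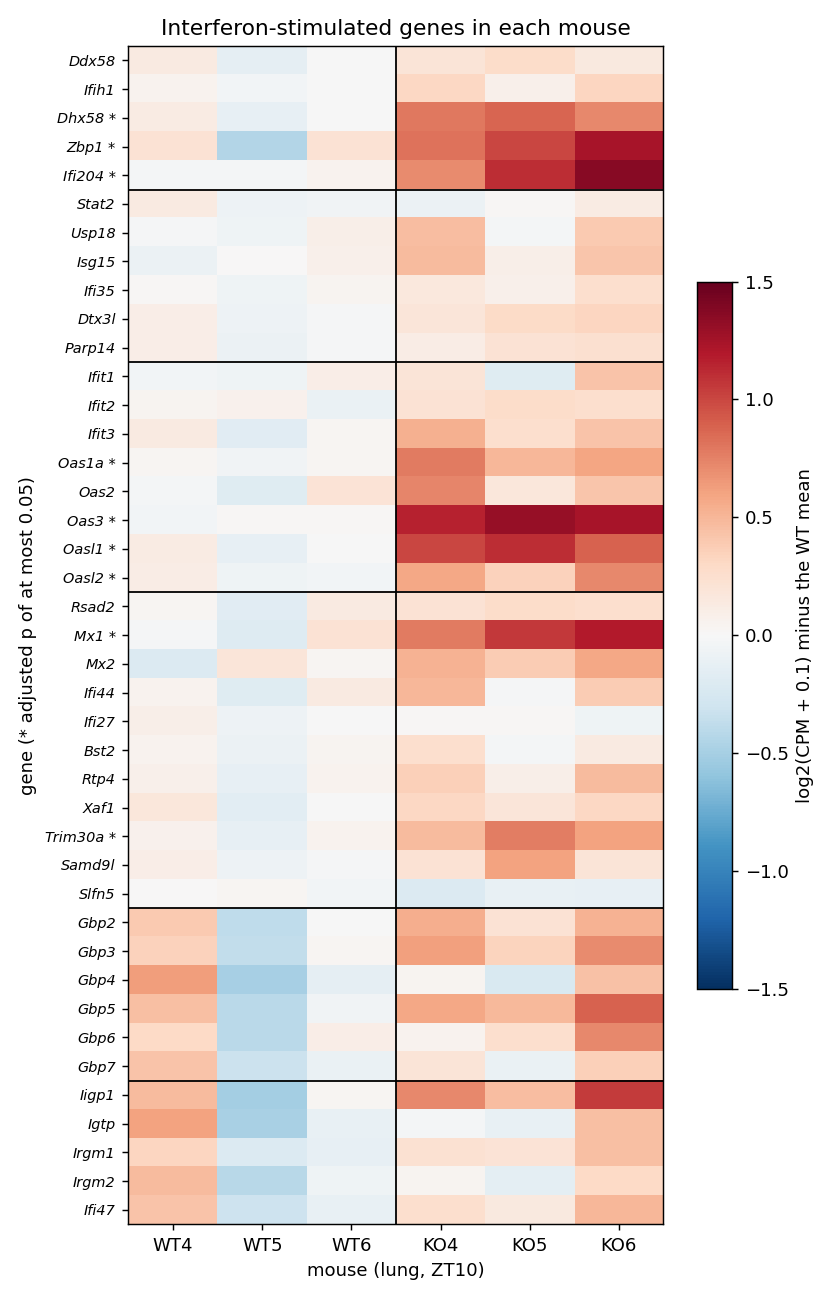
Level of each tested member in each mouse as log2(CPM + 0.1) minus the mean of the 3 WT mice, with genes in rows grouped by role (sensors, signalling, Ifit and Oas proteins, other antiviral and inducible genes, guanylate-binding proteins, immunity-related GTPases) and mice in columns, and red for higher and blue for lower. Asterisks mark the 9 members with an adjusted p of at most 0.05. The KO columns are red in most type I-type members, while the GTPases at the bottom are also red in WT4 and blue in WT5.

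The sequence upstream of the transcription start was also looked at. The members were listed as interferon-stimulated genes, so a high share of ISRE letters follows from the list. It says nothing about the KO difference. RefSeq (GRCm38.p6) gave a window from 250 bases before to 50 bases after the start for 28 of the 41 members. The letters GAAA followed by any 2 bases and GAAA again, the core of the ISRE, were searched on both strands (TTTC, 2 bases and TTTC on the other strand), as was TTCNNNGAA, the core of the GAS, which reads the same on both. The ISRE letters were found in 19 of the 28 windows (67.9%), in 12 of 20 type I-type members and in 7 of 8 GTPases, against 3.86% of the tested genes with a window. The GAS letters were found in 8 of the 28 (28.6%), in 4 of 20 type I-type members and in 4 of 8 GTPases, against 8.46% of the tested genes. A match is a description of these letters and not a measured binding site.

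The 150 bases before the start are shown for 4 type I-type members and 3 GTPases, chosen to set windows of called members beside those of members that were not called, and for Oas3, the member with the largest fold change, 30 bases around its match. Capitals mark the ISRE and GAS letters, and overlapping copies run together. Isg15 (chr4:156200819-156200968 on the minus strand), not called, holds 3 overlapping ISRE copies. Oas1a (chr5:120907526-120907675 on the minus strand), Trim30a (chr7:104465194-104465343 on the minus strand) and Oasl2 (chr5:114896784-114896933 on the plus strand) were called higher, with 2, 1 and 0 ISRE copies in the search window. The Trim30a window is that of the outer of its pair of starts. Gbp7 (chr3:142530186-142530335 on the plus strand), Igtp (chr11:58199406-58199555 on the plus strand) and Irgm2 (chr11:58214827-58214976 on the plus strand) were not called, and each holds both kinds of letters. The Oas3 stretch is chr5:120777715-120777744 on the minus strand, with the match beginning 75 bases before the start.
Isg15: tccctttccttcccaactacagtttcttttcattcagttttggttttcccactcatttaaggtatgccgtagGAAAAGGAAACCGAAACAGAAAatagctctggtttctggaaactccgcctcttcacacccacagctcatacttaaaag
Oas1a: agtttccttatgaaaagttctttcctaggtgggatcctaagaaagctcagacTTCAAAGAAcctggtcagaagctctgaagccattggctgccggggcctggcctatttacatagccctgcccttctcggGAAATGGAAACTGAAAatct
Trim30a: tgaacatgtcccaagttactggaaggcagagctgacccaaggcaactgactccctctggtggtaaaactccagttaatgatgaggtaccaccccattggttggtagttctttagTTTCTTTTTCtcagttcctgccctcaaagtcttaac
Oasl2: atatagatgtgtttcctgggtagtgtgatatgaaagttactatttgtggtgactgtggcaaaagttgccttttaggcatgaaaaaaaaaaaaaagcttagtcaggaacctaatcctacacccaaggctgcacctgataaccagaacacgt
Oas3: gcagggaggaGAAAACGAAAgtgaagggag
Gbp7: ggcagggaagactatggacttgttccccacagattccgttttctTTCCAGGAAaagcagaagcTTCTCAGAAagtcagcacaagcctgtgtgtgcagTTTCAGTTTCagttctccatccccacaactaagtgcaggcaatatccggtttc
Igtp: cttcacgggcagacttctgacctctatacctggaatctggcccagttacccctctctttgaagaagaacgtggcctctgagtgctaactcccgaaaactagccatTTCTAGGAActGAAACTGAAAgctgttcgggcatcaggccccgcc
Irgm2: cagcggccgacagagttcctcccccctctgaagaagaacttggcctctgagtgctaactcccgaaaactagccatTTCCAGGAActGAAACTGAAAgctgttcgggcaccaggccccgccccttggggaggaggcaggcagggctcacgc

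Oas1a, called, and Isg15, not called, both carried overlapping ISRE copies, while Oasl2, called, and Xaf1, not called, carried none.

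Among the 5 sensors, the proteins that bind foreign or misplaced nucleic acid, 3 were called higher and all 5 had KO values above all WT values. Their median log2 fold change was 0.80, and over all genes tested 3.72% were called higher and 17% had all KO values above. Dhx58, which encodes LGP2, an RNA helicase that tunes the other RIG-I-like receptors, measured 9.22, 7.76 and 8.38 CPM in WT4, WT5 and WT6 and 14.6, 15.6 and 13.9 CPM in KO4, KO5 and KO6. The lowest KO mouse was well above the highest WT mouse, and the log2 fold change was 0.80 (SE 0.102, adjusted p = 0.0145). Zbp1, a sensor of Z-form nucleic acid that can start necroptosis, measured 12.2, 7.72 and 12.2 CPM in the WT mice and 18.5, 21 and 24.9 CPM in the KO mice. WT5 was low among the WT mice, and the log2 fold change was 0.997 (SE 0.194, adjusted p = 0.0342). Ifi204, a DNA-binding protein of the Ifi200 family, measured 5.60, 5.61 and 5.92 CPM in the WT mice, which were close together, and 9.39, 12.4 and 14.9 CPM in the KO mice, which were spread out. Its log2 fold change was 1.10 (SE 0.173, adjusted p = 0.0227). Of its 50-base stretches 30.2% recur in related genes such as Mndal, so reads from these stretches may not have been counted for Ifi204. The other pair of RIG-I-like receptors moved less. Ddx58, which encodes RIG-I, measured 86.8, 72.2 and 79.1 CPM in the WT mice and 90.2, 95.7 and 87.5 CPM in the KO mice, a log2 change of 0.20 (adjusted p = 0.154). Ifih1, which encodes MDA5, measured 58.9, 54.9 and 56.3 CPM against 70.5, 60.0 and 70.8 CPM, a log2 change of 0.24 (adjusted p = 0.103). KO5 lay close to the WT mice in Ifih1, and without KO5 its adjusted p was 0.0255. That was the only 1 of 6 fits with a mouse left out that called Ifih1, and the highest adjusted p among them was 0.281.

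None of the 6 members that carry or regulate the signal was called, and 4 of them had an unadjusted p of at most 0.05, beside 25.5% of all genes tested. Their median log2 fold change was 0.22. Stat2, the transcription factor of the ISRE-binding complex, measured 99.0, 85.5 and 86.6 CPM in the WT mice and 84.9, 91.4 and 98.3 CPM in the KO mice. The groups overlapped fully, with WT4 highest and KO4 lowest, and the log2 fold change was 0.02 (adjusted p = 0.924). Isg15, a ubiquitin-like protein that is attached to other proteins, measured 8.90, 9.49 and 9.99 CPM in the WT mice and 13.2, 10.05 and 12.6 CPM in the KO mice. KO5 was barely above WT6, and the log2 fold change was 0.33 (SE 0.128, adjusted p = 0.160). Usp18, the protease that takes Isg15 off again and holds back the type I receptor, measured 22.5, 21.7 and 24.1 CPM in the WT mice and 31.4, 22.3 and 29.8 CPM in the KO mice, a log2 change of 0.28 (adjusted p = 0.233). KO5 lay inside the WT range in Usp18, and without KO5 its adjusted p was 0.0270. The other fits with a mouse left out did not call Usp18 (1 of 6 called it), with an adjusted p of up to 0.451. Dtx3l, a ubiquitin ligase whose exons overlap those of Parp9 on the opposite strand by 458 bases, had a log2 change of 0.26 (adjusted p = 0.0562). DESeq2 (adjusted p = 0.0214) and edgeR's exact test (adjusted p = 0.0499) called Dtx3l higher. Parp14, an ADP-ribosyltransferase, had a log2 change of 0.19 (adjusted p = 0.137). Ifi35, which binds other interferon-induced proteins, had 0.16 (adjusted p = 0.163).

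The Ifit and Oas proteins bind foreign RNA or make the 2-5A messenger that activates RNase L. Of these 8 members 4 were called higher, beside 3.72% of all genes tested. All 4 were of the Oas family, and the median log2 fold change of the 8 was 0.50. Oas3, the synthetase with 3 enzyme-like units that responds best to long double-stranded RNA, measured 3.50, 3.64 and 3.65 CPM in WT4, WT5 and WT6 and 8.16, 9.08 and 8.59 CPM in KO4, KO5 and KO6. Both groups were tight, and every KO mouse had over 2 times the level of every WT mouse. The log2 fold change was 1.26 (SE 0.113, adjusted p = 0.00665), a fold of 2.39, and it stayed called in 5 of 6 fits with a single mouse left out (adjusted p = 0.0566 without WT5). Oasl1, an Oas-like protein known to hold back translation of Irf7, measured 2.17, 1.82 and 1.97 CPM in the WT mice and 4.06, 4.38 and 3.75 CPM in the KO mice. The groups were again far apart, with a log2 change of 1.03 (SE 0.150, adjusted p = 0.0189). Oas1a, a synthetase that shares 57.6% of its 50-base stretches with Oas1g and Oas1b, measured 8.17, 7.67 and 8.12 CPM against 13.8, 11.3 and 12.1 CPM, a log2 change of 0.63 (SE 0.108, adjusted p = 0.0261). Oasl2, an Oas-like protein with ubiquitin-like domains, measured 63.4, 55.9 and 56.9 CPM in the WT mice and 87.6, 74.8 and 97.0 CPM in the KO mice. Its log2 fold change of 0.56 (SE 0.101) had an adjusted p of 0.0286. KO5 was the lowest KO mouse in Oas1a and Oasl2 and the highest in Oas3 and Oasl1. Oas2, the remaining synthetase, measured 28.4, 25.4 and 33.5 CPM in the WT mice and 48.2, 32.6 and 38.6 CPM in the KO mice. The groups overlapped in KO5 and WT6, and its log2 fold change was 0.44 (SE 0.158, adjusted p = 0.138).

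Ifit1, Ifit2 and Ifit3 encode proteins that bind viral RNA ends or each other and stop translation, and none of them was called. DESeq2 called Ifit2 (adjusted p = 0.0333) and Ifit3 (adjusted p = 0.00514). The exact test of edgeR called Ifit3 (adjusted p = 0.0121). Ifit3 measured 72.5, 58.8 and 67.5 CPM in the WT mice and 95.2, 78.4 and 89.2 CPM in the KO mice, a log2 change of 0.40 (adjusted p = 0.0579), and it shares 51.2% of its 50-base stretches with Ifit3b. Ifit2 measured 42.2, 43.1 and 38.4 CPM against 48.1, 49.8 and 48.9 CPM, a small but separate difference of 0.25 on the log2 scale (adjusted p = 0.0547). Ifit1 overlapped between the groups, with KO5 lowest of all 6 mice and KO6 highest, and its log2 fold change was 0.16 (adjusted p = 0.541).

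Of the 11 other antiviral and inducible members, Mx1 and Trim30a were called higher and none was called lower. Among all genes tested, 3.72% were called higher and 2.67% lower. Mx1, a dynamin-like GTPase that blocks influenza-type viruses, measured 3.58, 3.16 and 4.24 CPM in the WT mice and 6.31, 7.68 and 8.39 CPM in the KO mice, a log2 change of 1.02 (SE 0.169, adjusted p = 0.0243). C57BL/6J mice are known to carry an Mx1 allele that lacks coding exons. Trim30a, a ring-finger protein that holds back Toll-like receptor signalling, measured 54.6, 47.9 and 54.1 CPM in the WT mice and 72.2, 88.6 and 79.4 CPM in the KO mice. KO5 was the highest of the 6 mice, and the log2 fold change was 0.62 (SE 0.0886, adjusted p = 0.0186). Mx2, the close relative of Mx1, measured 3.02, 3.98 and 3.59 CPM against 5.08, 4.62 and 5.28 CPM, a log2 change of 0.50 that missed the threshold (adjusted p = 0.0959). The groups of Mx2 did not overlap.

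The remaining members of this group had smaller differences. Samd9l, a restriction factor of poxviruses, had a log2 change of 0.35 (adjusted p = 0.117) and KO5 far above the others. Rtp4, a chaperone of receptors that also binds viral RNA, had 0.31 (adjusted p = 0.144), Xaf1, which promotes cell death, had 0.26 (adjusted p = 0.131), and Rsad2, which encodes the enzyme viperin, had 0.25 (adjusted p = 0.173). In these 4 genes all KO values lay above all WT values. The groups overlapped in Ifi44, a GTP-binding-like protein of uncertain function, with a log2 change of 0.29 (adjusted p = 0.277), and in Bst2, which encodes tetherin, the protein that holds budding viruses on the cell, with 0.12 (adjusted p = 0.388). Ifi27, a small mitochondrial protein, was near 0 at -0.01 (adjusted p = 0.947). Slfn5, a Schlafen protein, measured 200.9, 204.0 and 193.6 CPM in the WT mice and 173.3, 185.0 and 182.7 CPM in the KO mice. It was the member whose KO values all lay below the WT values, and its log2 fold change of -0.15 was not past the threshold (adjusted p = 0.132). Its exons overlap those of Slfn5os on the opposite strand by 559 bases.

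**Figure D2:**
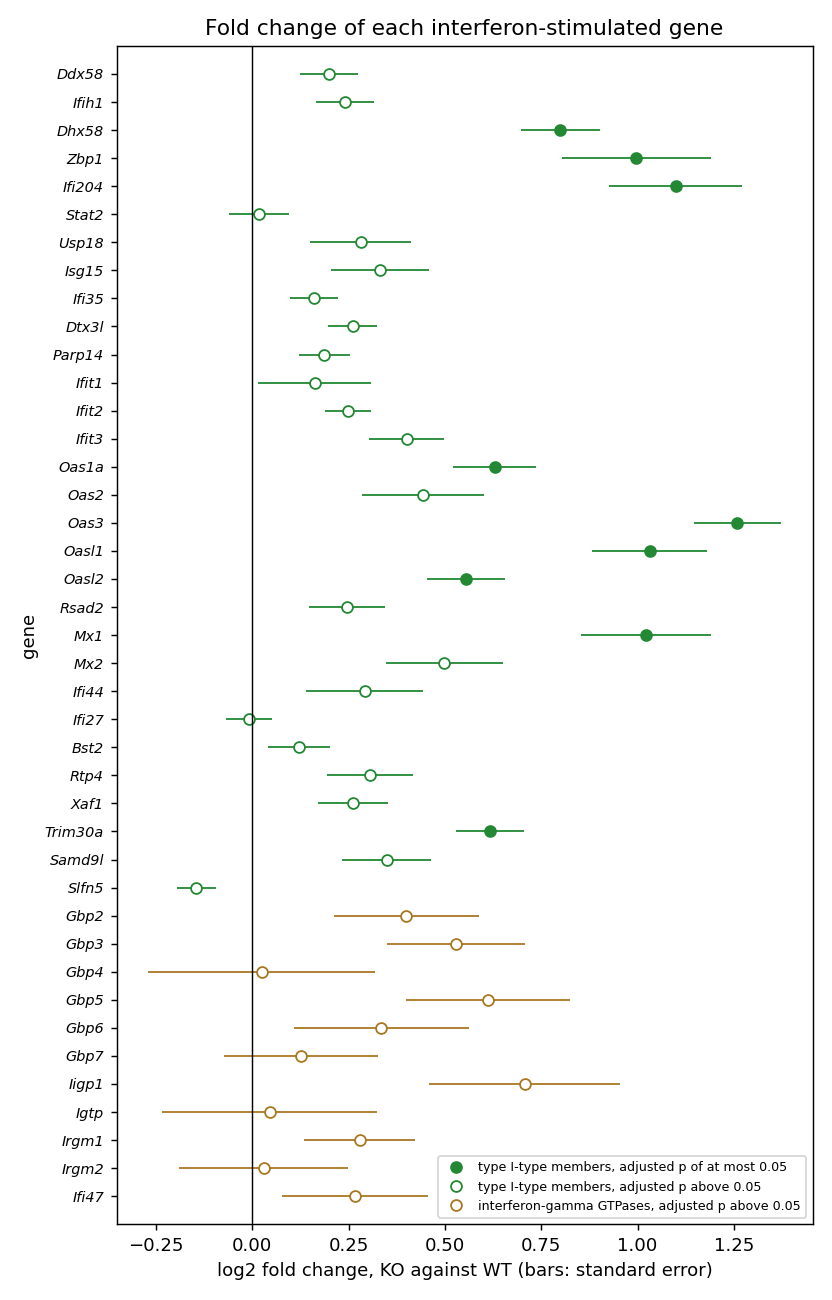
Log2 fold change of KO against WT for each of the 41 tested members, with bars of 1 standard error (SE), in the same order of roles from top to bottom. The 9 filled points are the members with an adjusted p of at most 0.05, all type I-type, and the bars of the GTPases are mostly wider than those of the type I-type members.

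The 11 GTPases form protein families that coat and break the vacuoles of intracellular bacteria and parasites, and they were set beside the type I-type members because interferon-gamma is their main inducer. None of the 6 guanylate-binding proteins was called (median log2 fold change 0.37), beside 6.39% of all genes tested. Gbp5, a guanylate-binding protein that promotes inflammasome assembly, measured 40.3, 22.2 and 28.3 CPM in WT4, WT5 and WT6 and 43.9, 41.1 and 54.3 CPM in KO4, KO5 and KO6. WT4 had 1.81 times the level of WT5, and the log2 fold change of 0.61 (SE 0.212) had an adjusted p of 0.130. Gbp3 measured 61.3, 37.1 and 49.1 CPM against 73.6, 60.9 and 78.9 CPM, a log2 change of 0.53 (adjusted p = 0.125), with KO5 just under WT4. DESeq2 called Gbp5 (adjusted p = 0.0244) and Gbp3 (adjusted p = 0.0237). The exact test of edgeR did not (adjusted p = 0.0669 for Gbp5 and 0.0607 for Gbp3). Gbp2, which acts on bacterial vacuoles, had 0.40 (adjusted p = 0.239), and Gbp6 had 0.34 (adjusted p = 0.402), with 59.7% of its 50-base stretches shared with its neighbours. Gbp4 measured 181.6, 82.7 and 106.8 CPM in the WT mice and 120.2, 99.5 and 158.4 CPM in the KO mice. WT4 was the highest and WT5 the lowest of all 6, and the log2 fold change was 0.02 (SE 0.294, adjusted p = 0.973). Gbp7 behaved alike, with a log2 change of 0.13 (adjusted p = 0.742).

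None of the 5 immunity-related GTPases was called either (median log2 fold change 0.27), beside 6.39% of all genes tested. Iigp1, which oligomerises on parasite vacuoles, measured 74.1, 37.5 and 54.5 CPM in the WT mice and 88.1, 73.6 and 110.5 CPM in the KO mice. It had the largest fold change of the GTPases, 0.71 on the log2 scale (SE 0.248, adjusted p = 0.133), and KO5 lay just under WT4. Irgm1, a regulator of the other family members and of autophagy, had a log2 change of 0.28 (adjusted p = 0.275), and Ifi47 had 0.27 (adjusted p = 0.423). Igtp measured 84.1, 39.3 and 51.0 CPM against 54.1, 51.1 and 75.4 CPM, with a log2 change of 0.05 (adjusted p = 0.945), and Irgm2, which overlaps Igtp on the same strand, had 0.03 (adjusted p = 0.956). In both, WT4 was above all KO mice.

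The GTPases varied together between mice of the same genotype. In all 11, WT4 was the highest and WT5 the lowest WT mouse, and WT5 was the lowest of all 6. WT4 was the highest of all 6 in 4 of them, Gbp4, Gbp7, Igtp and Irgm2. Among the KO mice, KO6 was the highest in 10 of the 11 and KO5 the lowest in 10. As the mean over the 11 genes of log2(CPM + 0.1) minus the WT mean, the level was 0.44, -0.39 and -0.05 in WT4, WT5 and WT6 and 0.29, 0.14 and 0.58 in KO4, KO5 and KO6. The SD between mice was 0.42 in the WT group and 0.22 in the KO group, and the groups overlapped. The same mean over the 30 type I-type members was 0.05, -0.09 and 0.04 for WT4 to WT6 and 0.42, 0.37 and 0.48 for KO4 to KO6, with an SD of 0.078 and 0.057. Here every KO mouse lay above every WT mouse. The median ratio of the highest to the lowest WT mouse was 1.71 for the GTPases and 1.14 for the type I-type members. Whether the genotype difference itself was unlike between the 2 kinds of gene was not tested.

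**Figure D3:**
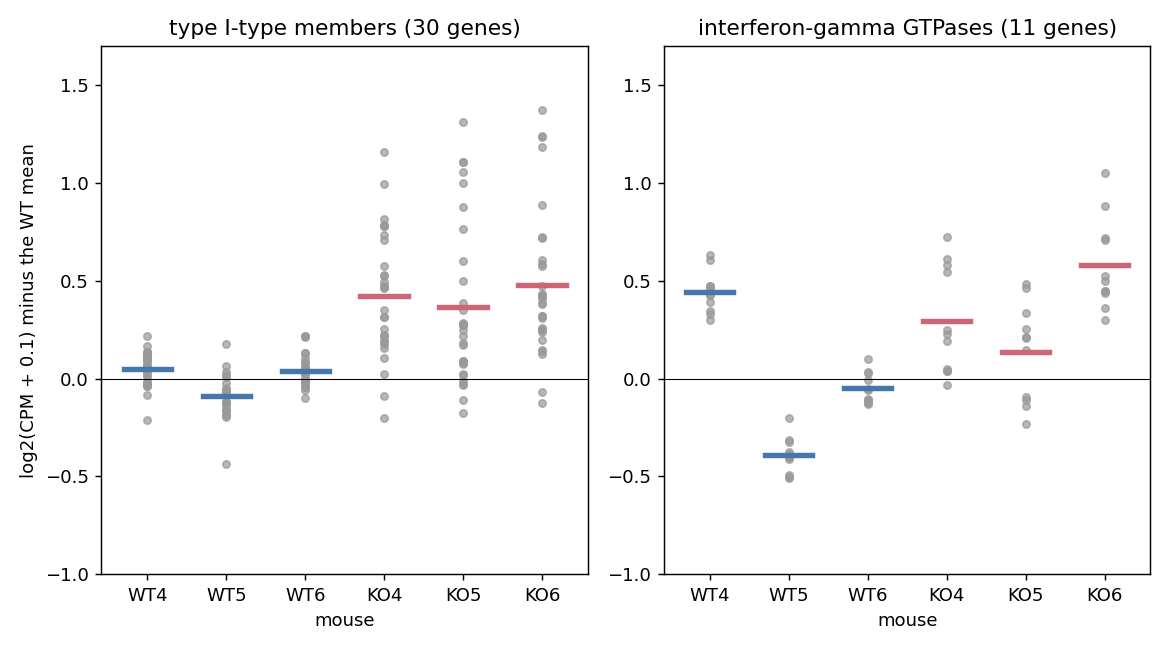
Level of each member (points) and the mean over members (bars) in each mouse, as log2(CPM + 0.1) minus the WT mean, for the 30 type I-type members on the left and the 11 interferon-gamma GTPases on the right. The type I-type means are 0.37 to 0.48 in KO mice and -0.09 to 0.05 in WT mice, while the GTPase mean of WT4, 0.44, lies above those of KO4 and KO5.

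Among the type I-type members, those with the lowest level held most of the calls. Levels were compared per length, as the mean CPM of WT mice per kb of exons. The 10 lowest lay between 0.509 (Oas3) and 4.24 (Oas1a) CPM per kb, and 7 of them were called higher (Oas3, Oasl1, Mx1, Ifi204, Dhx58, Zbp1 and Oas1a). The 20 others lay between 6.54 (Oas2) and 70.4 (Bst2) CPM per kb, and 2 of them were called (Oasl2 and Trim30a). Bst2 and Ifi27 (64.3 CPM per kb), the most abundant members, had log2 fold changes of 0.12 and -0.01. Over all genes tested 3.72% were called higher, and the share called among all genes at these levels was not computed. This split of the members was made after the values were seen, and counting error is largest where levels are low.

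**Figure D4:**
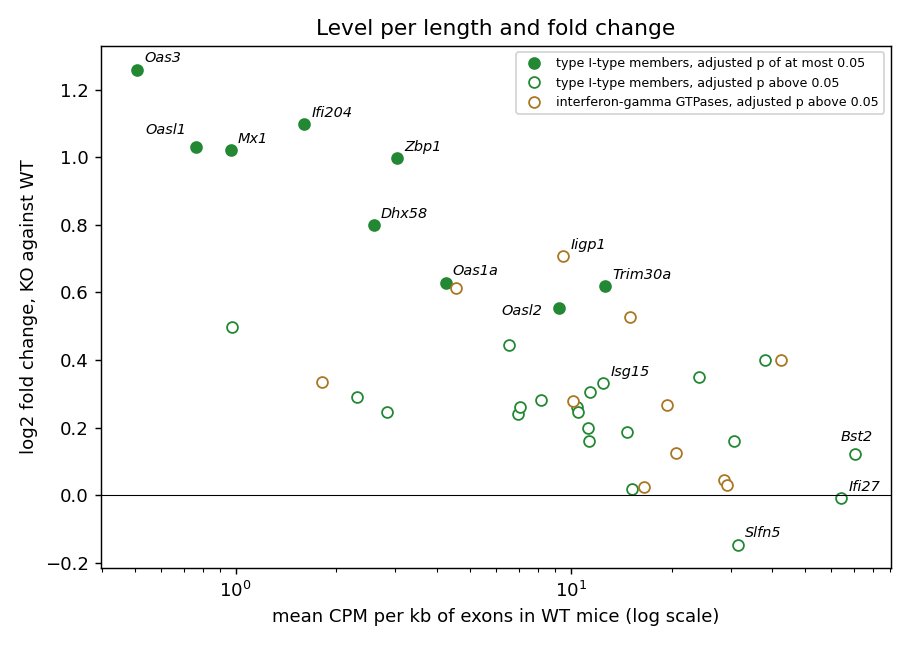
Log2 fold change of KO against WT plotted against the mean level of the WT mice in CPM per kb of exons, on a log scale, with a point for each of the 41 tested members. The 5 members with the highest fold changes, from Oas3 at 1.26 to Zbp1 at 0.997, lie at or below 3.03 CPM per kb, and the members above 60 CPM per kb lie near 0.

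Upstream of these genes, the interferons themselves were close to undetected. Of 20 type I and type III interferon genes, 15 had 0 counts in all 6 mice, and the highest count of any was 1, below the 3 counts taken as detected. Ifng, the gene of interferon-gamma, had 7, 2 and 12 counts in WT4 to WT6 and 8, 24 and 12 in KO4 to KO6, which did not pass the filter for testing. The depth does not allow a comparison of the ligands. None of the 6 receptor genes was called, and 2 had an unadjusted p of at most 0.05, a share near the 25.5% of all genes tested. Their median log2 fold change was 0.07. Ifnar1 had the largest, 0.24 (adjusted p = 0.0530), followed by Ifnar2 at 0.15 (adjusted p = 0.183), while Ifngr1 had 0.04, Ifngr2 0.02, Ifnlr1 0.06 and Il10rb 0.08, the last a shared chain of the type III receptor. DESeq2 called Ifnar1 higher (adjusted p = 0.0165), and edgeR's exact test did not (adjusted p = 0.0592).

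Of the kinases and transcription factors of the pathway described here, Irf7 and Irf5 were called higher, beside 3.72% of all genes tested. Irf7, the factor that amplifies type I interferon transcription, measured 23.0, 20.7 and 18.0 CPM against 31.3, 35.5 and 36.4 CPM, a log2 change of 0.74 (SE 0.105, adjusted p = 0.0184). Irf5, a factor of the same family used by myeloid and B cells, measured 22.1, 19.1 and 18.9 CPM against 31.6, 45.0 and 37.8 CPM, a log2 change of 0.94 (SE 0.135, adjusted p = 0.0189). Their groups did not overlap. Irf9, the DNA-binding unit of the ISRE complex, had 0.05 (adjusted p = 0.696), close to its partner Stat2. Irf8, a myeloid and B cell factor, had 0.66 (adjusted p = 0.0888), with KO5 highest. DESeq2 (adjusted p = 0.00438) and edgeR's exact test (adjusted p = 0.0202) called Irf8 higher. The values of the others were 0.20 for the kinase Jak1, 0.14 for Jak2, 0.18 for Tyk2, -0.02 for Irf1, 0.20 for Irf2 and 0.01 for Irf3. Of 6 brakes on the signal, Ptpn6, a phosphatase of blood cells, was called higher with a log2 change of 1.09 (SE 0.207, adjusted p = 0.0322) and KO5 highest. Socs1, Socs3, Ptpn1, Ptpn2 and Pias1 lay between 0.06 and 0.35 and were not called. DESeq2 called Ptpn1 higher (adjusted p = 0.0209), and edgeR's exact test did not (adjusted p = 0.0719).

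Further genes of the same responses that are not members were also described. The shares over all genes tested were 3.72% called higher and 2.67% called lower. Of 40 other genes of the type I kind that were tested, 12 were called higher and none lower, with a median log2 fold change of 0.33. They were Ddx60, a helicase-like cofactor of RNA sensing (1.05, adjusted p = 0.0118), Eif2ak2, the kinase PKR that stops translation on double-stranded RNA (0.28, adjusted p = 0.0265), Sp100 of nuclear bodies (0.62), Uba7, the enzyme that activates Isg15 for conjugation (0.54), Ifit3b (0.61), Trim30d (0.49), Lgals3bp (0.44), Epsti1 (1.02), Phf11b (0.89) and the Schlafen genes Slfn2 (0.85), Slfn4 (0.99) and Slfn8 (1.29). Of 21 other genes induced by interferon-gamma, 6 were called higher and none lower, with a median log2 fold change of 0.51. These were Gbp8 (0.67), a guanylate-binding protein outside the member list, Nlrc5 (0.68), the activator of MHC class I genes, the peptide transporter genes Tap1 (0.74) and Tap2 (0.33), and the immunoproteasome genes Psmb8 (0.52) and Psmb9 (0.65, adjusted p = 0.0126). Cxcl9, a chemokine for T cells, had a log2 change of 2.04 (SE 0.474) and just missed the threshold (adjusted p = 0.0505). All KO values of Cxcl9 lay above all WT values. DESeq2 (adjusted p = 9.99e-05) and edgeR's exact test (adjusted p = 0.00173) called it higher. The study lists it among its differentially expressed genes at ZT10. Tgtp1 and Tgtp2, GTPases of the Iigp1 family, had 0.00 and 0.06.

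Markers of other cell types, and genes that respond to handling, were set beside the members. For comparison, 3.72% of all genes tested were called higher and 2.67% lower. Of 8 natural killer cell genes 2 were called higher (median log2 fold change 0.74), of 7 neutrophil genes tested 3 (median 1.01), of 9 alveolar macrophage genes 1 (median 0.21), and none of 6 plasmacytoid dendritic cell genes (median 0.68, with 4 at an unadjusted p of at most 0.05, beside 25.5% of all genes tested). Ly6g, also a neutrophil marker, had 3 counts in each WT mouse and 3, 7 and 5 in KO4, KO5 and KO6, too few to be tested. The 10 B cell genes had a median of 1.91 and the 10 T cell genes of 0.87, with none called and 10 and 8 at an unadjusted p of at most 0.05, and KO5 was the highest mouse in all of them. The summed levels of natural killer cell genes were 32.8 to 45.4 CPM in WT mice and 52.9 to 67.8 CPM in KO mice. Genes of red blood cells fell, with 5 of 5 called lower and a median log2 fold change of -0.89. Endothelial genes had a median of -0.04 with 1 of 8 called lower, and alveolar genes had -0.15 with none of 8 called (2 at an unadjusted p of at most 0.05, near the 25.5% of all genes tested). The 6 club and ciliated cell genes had a median of -0.32 with none called (2 at that unadjusted p). Of 6 heat shock genes 4 were called lower, with a median of -1.56 and summed levels of 1108 to 1705 CPM in WT mice and 508.1 to 596.3 CPM in KO mice. The 7 immediate early genes had a median of -0.55 with none called (2 at an unadjusted p of at most 0.05), and WT6 was the highest and WT4 the lowest WT mouse in all 7. KO5, with the largest lymphocyte signal, was the lowest KO mouse in 14 of the 30 type I-type members and the highest in 10. WT5 was the lowest WT mouse in 24 of the 30 type I-type members and in all 11 GTPases, and also in 8 of 12 monocyte and 7 of 8 natural killer cell genes. The part of these cells and of the heat shock and immediate early genes in the differences of the members was not tested.

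**Figure D5:**
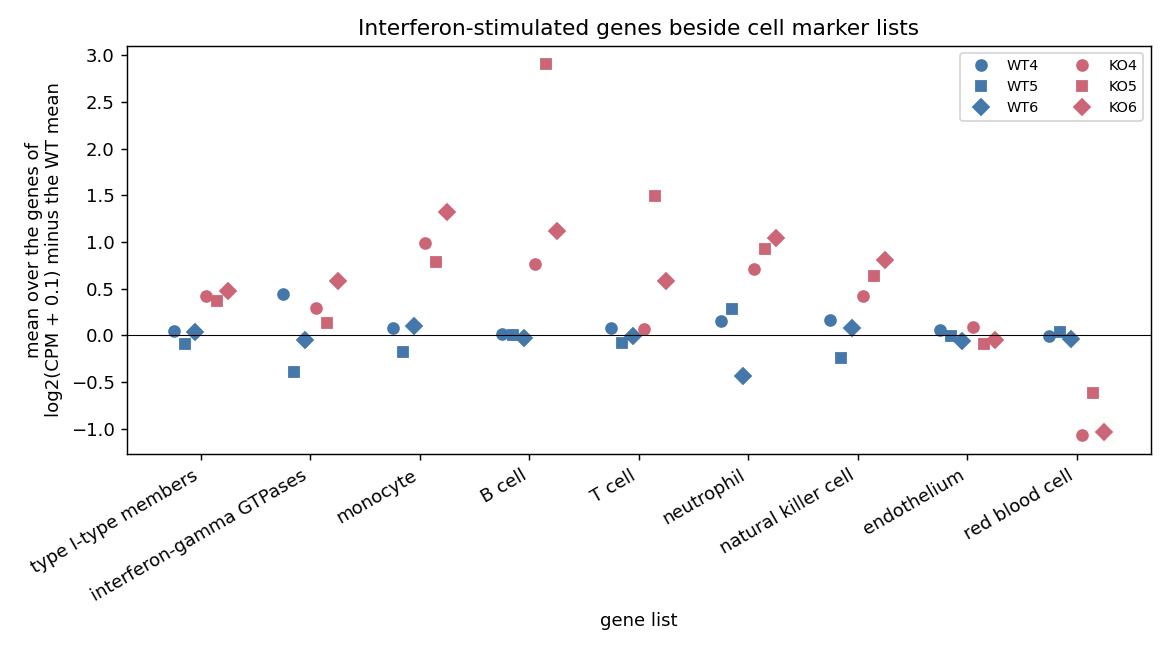
Mean over the genes of each list of log2(CPM + 0.1) minus the WT mean, for each mouse (symbols) of the WT (blue) and KO (red) groups, for the 2 kinds of members and for markers of 7 cell types. The KO mice lie at 0.79 to 1.32 in monocyte genes and 0.37 to 0.48 in type I-type members, and KO5 stands apart in B cell genes at 2.901 and T cell genes at 1.49.

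In GRCm38, 8 members lie on chromosome 11, the chromosome of Zpbp2, and 2 of them within 10 Mb of it, Dhx58 at 2.14 Mb and Ifi35 at 2.89 Mb. The strain name gives 129S7 as the donor of the targeted allele, and the part of donor sequence near Zpbp2 in the values of these 2 genes was not tested. The called members lie on 6 chromosomes. Oas3 (chr5:120753098-120777661), Oas1a (chr5:120896256-120907521), Oasl1 (chr5:114923240-114937915) and Oasl2 (chr5:114896936-114912234) are on chromosome 5, in the Oas cluster and a separate Oasl pair. Dhx58 is at chr11:100694884-100704271, Zbp1 at chr2:173206612-173218923, Ifi204 at chr1:173747293-173766943, Mx1 at chr16:97447035-97462907 and Trim30a at chr7:104409025-104465193. The exons of Dhx58 overlap those of Dhx58os on the opposite strand by 141 bases, and the strand setting of the counting is not given in the sources used here. Oas2 lies in the same cluster as Oas3 and Oas1a and was not called.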

How the data were processed

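Lungs of 3 WT and 3 Zpbp2 KO mice at ZT10 were sequenced by the authors from stranded TruSeq mRNA libraries. According to the study's methods and the submitters' processing notes, reads were trimmed (Trimmomatic 0.36), aligned to GRCm38 (STAR 2.5.3a), processed with Picard 2.9.0 and counted per gene (HTSeq 0.6.0). The deposited values are raw counts per Ensembl gene in 1 column per mouse, without normalization. The annotation release and the strand setting of the counting are not given in the sources used here, so overlapping and near-identical genes are uncertain.

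KO was compared with WT in R 4.3.3 with edgeR 4.0.16 (TMM, filterByExpr with a minimum count of 10 and total of 15, glmQLFit and glmQLFTest, no covariates) over 17037 genes with Benjamini-Hochberg adjustment, and genes were called at an adjusted p of at most 0.05. All adjusted p-values in the text come from this fit unless another is named. CPM values use TMM-scaled library sizes, and the standard error is the log2 fold change divided by the square root of F. Total counts were 19981428 to 46796908 per mouse, and the floor of 3 counts covers counting error only. Samples were grouped by their genotype labels, and each is a separate mouse. Alternatives were each mouse left out, the replicate number as a block, DESeq2 1.42.0, edgeR's exact test, size factors of DESeq2 or upper-quartile factors, and no filter or a filter of 10 counts in each library.

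The members, pathway lists and marker lists were chosen with earlier results of these data known, and their counts and medians are descriptions. The text names all 41 members, the called genes of the pathway lists, the ligands, receptors, kinases and factors of the pathway (1 of them is not reported here), the markers a result turns on, and Zpbp2. Overlaps and positions were read from GENCODE M21. Shared sequence is the share of 50-base stretches of a gene's longest transcript found in transcripts of other genes, on either strand. Promoter windows are from RefSeq (GRCm38.p6). Tables and figures were made with Python, NumPy, pandas and Matplotlib.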

Additional observations from a re-analysis of the deposited data

How the results depend on the processing

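The number of members called higher was 9 in the edgeR fit with TMM and 9 to 11 with DESeq2 size factors, upper-quartile factors, edgeR's exact test, no filter or a filter of 10 counts in each library, and all 9 were among the calls in each of these. With DESeq2 it was 15, again with all 9, and 1913 genes were called over the whole table against 1089. The calls that DESeq2 added were Gbp3, Gbp5, Dtx3l, Ifit2, Ifit3 and Samd9l. With an absolute log2 fold change of at least 1.5, the number of members called higher in the edgeR fit was 0. Leaving out each mouse in turn gave 0 to 13 members called higher, 0 called lower in every fit, and 1 to 1278 genes called over the whole table. The median log2 fold change ranged from 0.25 to 0.41 over the type I-type members, with the highest value without KO5, and from 0.16 to 0.49 over the GTPases. Stat2, Ifi27, Gbp4, Gbp7, Igtp and Irgm2, which were not called, changed sign when a mouse was left out, with ranges of -0.0359 to 0.0865 for Stat2, -0.0504 to 0.0355 for Ifi27, -0.20 to 0.41 for Gbp4, -0.0256 to 0.37 for Gbp7, -0.17 to 0.41 for Igtp and -0.15 to 0.30 for Irgm2. The causes were not tested.

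With the replicate number as a block, 1 member (Oas3) and 66 genes over the whole table were called. The deviations of same-numbered mice from their group means had r of -0.032, -0.154 and -0.021 across genes for numbers 4, 5 and 6. Mice of different numbers had r from -0.229 to 0.261. With so few mice these values cannot decide whether the numbers mark a shared litter or day. The numbers are not stated to mark pairs, so the block was kept as an alternative. The cause of the lost calls was not tested.

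With 3 mice a group, 1 time point and whole lung, the cell source of the RNA was not resolved. The type I and type III interferon genes had at most 1 count. Whether reads of members with much shared sequence (Oas1a, Ifit3, Gbp6, Ifi204) were assigned or left out was not tested.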

Other observations

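Of 5 other Schlafen genes tested, 3 were called higher in KO mice, beside 3.72% of all genes tested. Slfn2, Slfn4 and Slfn8 had log2 fold changes of 0.85 (standard error 0.111, adjusted p = 0.0156), 0.99 (standard error 0.181, adjusted p = 0.0290) and 1.29 (standard error 0.249, adjusted p = 0.0335) in edgeR's quasi-likelihood test. Slfn1 had 0.81 (adjusted p = 0.128) and Slfn9 0.47 (adjusted p = 0.175), with overlapping groups, beside -0.15 for Slfn5. DESeq2 called Slfn1 higher (adjusted p = 0.0382), and edgeR's exact test did not (adjusted p = 0.0927). Slfn8 measured 15.8, 32.3 and 20.1 CPM in KO4, KO5 and KO6 and 9.78, 8.87 and 9.44 CPM in WT4, WT5 and WT6. The difference between Slfn5 and the other Schlafen genes was not tested.

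Of the Ifi200 family, Mndal, Ifi203 and Ifi205 were also looked at and were not called in edgeR's quasi-likelihood test. DESeq2 called Mndal (adjusted p = 0.000873) and Ifi203 (adjusted p = 0.00197). The exact test of edgeR also called Mndal (adjusted p = 0.00734) and Ifi203 (adjusted p = 0.0111). Mndal had a log2 fold change of 0.78 (adjusted p = 0.0705) and Ifi203 of 0.60 (adjusted p = 0.0720), both with all KO values above all WT values, and Ifi205 had 0.15 (adjusted p = 0.764).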
